A study of Mus musculus with 17 samples.

Results

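The 10 genes described here are Adipoq, Cfd, Retn, Lep, Fabp4, Car3, Cidec, Lipe, Lpl and Pparg, which are known for high levels in fat cells. They were taken by symbol from count tables of 23284 gene symbols, and all 10 were present. The list was made with earlier results of these libraries in view and counts as selected on levels in them, given below in CPM (counts per 1000000 counts on genes, after TMM scaling). Differences between the groups are therefore given below as values of named genes, and the tests are those of fits over the whole table.

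Gene expression was measured by RNA sequencing of polyadenylated RNA in 17 mouse tumours that the labels call neuroendocrine pituitary tumours of a genetically engineered model. In 8 tumours the labelled genotype was Rb1/Trp53/Crebbp, and in 9 it was Rb1/Trp53, so the engineered Rb1 and Trp53 alleles were common to all of them and the Crebbp alleles set the groups apart. Rb1 and Trp53 encode the tumour suppressors RB and p53, and Crebbp encodes the histone acetyltransferase CBP. The sources used here name no strain, age, sex, deleted exon or driver of a Cre recombinase, and nothing in the labels says that each library came from a different mouse, so p-values measure the spread between these samples only.

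The libraries did not all fit the label of a pituitary tumour. In 7 libraries the count of Calca, the gene of calcitonin and CGRP, exceeded that of Pomc, the gene of the pituitary hormone precursor. These libraries, called Calca-high here, were tumours T1 to T4 of the Rb1/Trp53/Crebbp genotype and tumours T1, T3 and T4 of the Rb1/Trp53 genotype. In the other 10, called Pomc-high, Pomc exceeded Calca: Rb1/Trp53/Crebbp T5 to T8 and Rb1/Trp53 T2 and T5 to T9. Pomc was at 3.58 to 64.2 CPM in Calca-high libraries, against 93777 to 318190 CPM in Pomc-high ones. Tbx19, a transcription factor of Pomc cells, was at 0 to 0.316 CPM in Calca-high and 305 to 418 CPM in Pomc-high libraries, and Gh, the growth hormone gene, had 0 reads in every Calca-high library. Since the sets were made from the counts and not from the labels, differences between them carry no test. Total counts on genes were 8328297 to 28140755 per library, and the Rb1/Trp53 Calca-high libraries were the deepest with at least 20361712. A count of 3, taken as the detection floor, equals 0.114 to 0.383 CPM. Crebbp itself, counted over the whole gene, was at 42.8 to 93.3 CPM in libraries labelled Rb1/Trp53/Crebbp and 39.7 to 116 CPM in libraries labelled Rb1/Trp53. Within the Calca-high set it was higher in the libraries labelled Rb1/Trp53/Crebbp, at 67.3 to 93.3 CPM against 48.2 to 55.6 CPM in libraries labelled Rb1/Trp53 (log2 fold change 0.60 ± 0.12 SE, adjusted p = 0.00723, edgeR). Within the Pomc-high set its value was -0.47 ± 0.23 (adjusted p = 0.239, edgeR), and over all libraries -0.01 ± 0.20 (adjusted p = 0.978, edgeR). The genotype effects on Crebbp differed between the sets, with an interaction of 1.08 ± 0.32 (adjusted p = 0.0240, edgeR). A whole-gene count does not show a deleted exon, so the genotypes below are those of the labels and were not checked by the counts.

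Fat cells store triglyceride in a lipid droplet, release fatty acids from it on demand and secrete hormones called adipokines. Pparg, a nuclear receptor, drives fat cell differentiation and acts on many of the other genes listed here. Adipoq (adiponectin), Lep (leptin), Retn (resistin) and Cfd (adipsin, complement factor D) encode secreted proteins. Fabp4 carries fatty acids in the cytosol, and Car3, carbonic anhydrase 3, is abundant in fat and in skeletal muscle. Cidec coats and enlarges lipid droplets, Lipe (hormone-sensitive lipase) hydrolyses stored lipid, and Lpl (lipoprotein lipase) frees fatty acids from circulating lipoproteins. Not all of these genes are private to fat: Lpl is also made by muscle and some neurons, Fabp4 and Pparg by capillary endothelium and macrophages, and Lipe by steroid-producing cells.

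Promoters from the RefSeq table for GRCm38.p6, 250 bases before to 50 after the start, covered 7 of the 10 genes with 11 promoters. Car3, Fabp4 and Lpl had no entry. The promoters of Adipoq and Lep are shown because they are hormone genes expressed almost solely by fat cells and had the same 3 highest libraries. The capitals mark CCAAT or its reverse complement in Adipoq and the palindrome TTGCGCAA, an ideal C/EBP site, in Lep.
Adipoq (GRCm38.p6, chr16:23146286-23146585, plus strand): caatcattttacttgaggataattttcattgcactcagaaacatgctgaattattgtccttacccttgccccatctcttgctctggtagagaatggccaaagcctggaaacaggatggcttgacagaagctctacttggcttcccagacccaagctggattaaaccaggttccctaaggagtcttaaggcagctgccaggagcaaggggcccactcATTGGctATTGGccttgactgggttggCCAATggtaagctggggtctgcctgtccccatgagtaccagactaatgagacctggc
Lep (GRCm38.p6, chr6:29059971-29060270, plus strand): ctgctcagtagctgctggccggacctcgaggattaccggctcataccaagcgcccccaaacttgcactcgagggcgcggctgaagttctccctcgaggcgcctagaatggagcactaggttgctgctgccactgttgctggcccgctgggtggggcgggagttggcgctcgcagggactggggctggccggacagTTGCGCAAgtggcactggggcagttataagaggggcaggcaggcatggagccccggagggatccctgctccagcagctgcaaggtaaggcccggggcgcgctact
Both strands were searched for 5 motifs. CCAAT was found in the promoters of Adipoq and Pparg and in 37.4% of all 32851 promoters in the table. TTGCGCAA was found in Lep alone among the 7 genes, at position -55 from the start, and in 0.183% of all promoters. The nuclear receptor core site AGGTCA was found in Pparg (16.3% of all promoters), and so was TATAAA (13.6%). The DR1 motif, a direct repeat of such core sites with 1 base between, in which the fourth base of each was left free and which can overlap AGGTCA, was in none of the 11 promoters and in 0.381% of all. The matches are a description of these letters and say nothing of binding.

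Of the secreted proteins, Adipoq was high in the Rb1/Trp53 Calca-high libraries and at or near the detection floor elsewhere. Adipoq was at 0.527, 0, 0.0639 and 0.296 CPM in Rb1/Trp53/Crebbp Calca-high libraries T1 to T4, against 20.2, 16.2 and 2.56 CPM in Rb1/Trp53 Calca-high libraries T1, T3 and T4. In Pomc-high libraries it was at 0.105, 0, 0.220 and 0 CPM in Rb1/Trp53/Crebbp T5 to T8, and at 0 (lowest), 0 (median) and 0.639 CPM (highest) in the 6 Rb1/Trp53 libraries. The groups did not overlap within the Calca-high set and did overlap within the Pomc-high set. The 4 Rb1/Trp53/Crebbp Calca-high libraries held 11 Adipoq reads in all, against 920 in the 3 Rb1/Trp53 ones.

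Cfd, whose product activates the alternative complement pathway, was at 2.22, 0.0611, 0.0639 and 0.651 CPM in Rb1/Trp53/Crebbp Calca-high libraries, against 91.4, 36.6 and 11.3 CPM in Rb1/Trp53 Calca-high ones. In Pomc-high libraries it did not exceed 0.162 CPM in Rb1/Trp53/Crebbp and 0.255 CPM in Rb1/Trp53 tumours. Its order within the Calca-high set was the same as that of Adipoq in all 7 libraries, with Rb1/Trp53 T1 highest and Rb1/Trp53/Crebbp T2 lowest.

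Retn, an adipokine of mouse fat, was at 0.316, 0.0611, 0.255 and 0.0592 CPM in Rb1/Trp53/Crebbp Calca-high libraries, against 9.98, 5.28 and 0.652 CPM in Rb1/Trp53 Calca-high ones. Lep, the satiety hormone, was at 0.105, 0, 0 and 0.118 CPM in Rb1/Trp53/Crebbp and 1.42, 3.91 and 0.301 CPM in Rb1/Trp53 Calca-high libraries. For both genes the lowest Rb1/Trp53 library, T4, lay above the highest Rb1/Trp53/Crebbp library. In the Pomc-high set Lep had 0 reads in all 4 Rb1/Trp53/Crebbp libraries and 1 read in 1 of 6 Rb1/Trp53 libraries, and Retn had at most 2 reads per library, so differences in that set were not detectable at this depth.

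Of the genes of fatty acid handling, Fabp4 was detected in every library. It was at 5.17, 9.97, 6.20 and 5.44 CPM in Rb1/Trp53/Crebbp Calca-high libraries, against 86.3, 90.0 and 22.9 CPM in Rb1/Trp53 Calca-high ones. In Pomc-high libraries it was at 5.06, 3.98, 4.07 and 5.84 CPM in Rb1/Trp53/Crebbp tumours, and at 4.90 (lowest), 7.32 (median) and 12 CPM (highest) in Rb1/Trp53 tumours. The Rb1/Trp53/Crebbp Calca-high level thus lay in the range of the Pomc-high libraries, and the 3 Rb1/Trp53 Calca-high libraries lay above all others.

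Car3 was at 2.43, 2.20, 0.128 and 0.651 CPM in Rb1/Trp53/Crebbp Calca-high libraries, against 137, 88.0 and 9.68 CPM in Rb1/Trp53 Calca-high ones. Cidec was at 0.422, 0.183, 0.192 and 0.355 CPM in Rb1/Trp53/Crebbp and 17.8, 25.4 and 2.31 CPM in Rb1/Trp53 Calca-high libraries. Neither gene overlapped between the genotypes there, and T4 was the lowest Rb1/Trp53 library for both. In the Pomc-high set Car3 reached 0.324 CPM in Rb1/Trp53/Crebbp and 1.15 CPM in Rb1/Trp53 tumours, and Cidec reached 0.243 CPM in Rb1/Trp53/Crebbp and 1.02 CPM in Rb1/Trp53 tumours, with the highest value of each in Rb1/Trp53 T7.

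**Figure D1:**
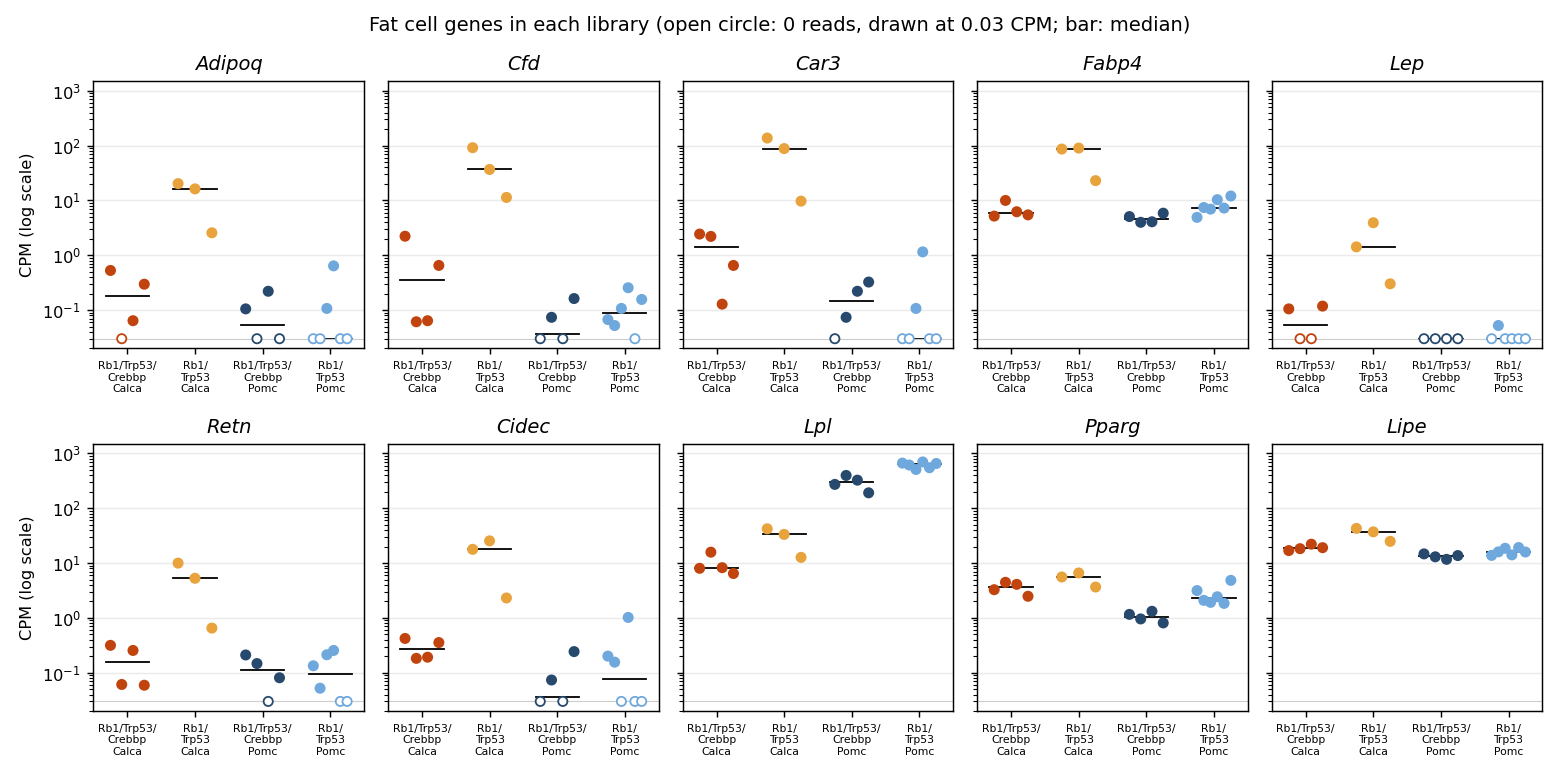
CPM of the 10 genes (log axis) in each library, in 4 columns per panel: Rb1/Trp53/Crebbp and Rb1/Trp53 Calca-high (Calca), then Rb1/Trp53/Crebbp and Rb1/Trp53 Pomc-high (Pomc). Points are libraries, bars are medians and open circles mark 0 reads; Adipoq, for example, reached 20.2 CPM in the second column and no more than 0.639 CPM in the others, while Lpl was at 191 CPM or more in the Pomc-high columns.

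Lipe was at 16.9, 18.3, 22.1 and 19.1 CPM in Rb1/Trp53/Crebbp Calca-high libraries, against 42.9, 37.1 and 24.9 CPM in Rb1/Trp53 Calca-high ones. Pomc-high libraries held 14.7, 13, 11.7 and 13.7 CPM in Rb1/Trp53/Crebbp tumours, and 13.8 (lowest), 16 (median) and 19.2 CPM (highest) in Rb1/Trp53 tumours. Lipe was thus at 11.7 CPM or more in every library, also where Adipoq had 0 reads. Its exons overlap those of 4732471J01Rik on the opposite strand, and since the strand setting of the counting is not given, reads of the pair cannot be told apart.

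Lpl had the reverse order of sets. It was at 8.02, 15.8, 8.24 and 6.45 CPM in Rb1/Trp53/Crebbp Calca-high libraries, against 42.2, 33.3 and 12.7 CPM in Rb1/Trp53 Calca-high ones. In the Pomc-high set it was at 272, 396, 325 and 191 CPM in Rb1/Trp53/Crebbp tumours, and at 509 (lowest), 634 (median) and 698 CPM (highest) in Rb1/Trp53 tumours. Every Pomc-high library lay above every Calca-high one, and within the Pomc-high set every Rb1/Trp53 library lay above every Rb1/Trp53/Crebbp library.

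Pparg was low throughout. It was at 3.27, 4.46, 4.09 and 2.48 CPM in Rb1/Trp53/Crebbp Calca-high libraries, against 5.58, 6.60 and 3.66 CPM in Rb1/Trp53 Calca-high ones, and these overlapped. In the Pomc-high set it was at 1.16, 0.958, 1.32 and 0.810 CPM in Rb1/Trp53/Crebbp tumours, and at 1.84 (lowest), 2.26 (median) and 4.84 CPM (highest) in Rb1/Trp53 tumours, without overlap. The 10 genes therefore did not share a single pattern: Lpl, Pparg and Lipe went against a label of fat cell markers, since they were detected in every library, also where Adipoq had 0 reads. Fabp4 too was detected in every library. Grouping Adipoq, Cfd, Retn, Lep, Fabp4, Car3 and Cidec as 7 genes of like pattern was done after the values had been seen and is a description.

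Across the libraries, 8 of the 10 genes, all but Lpl and Pparg, had the 3 Rb1/Trp53 Calca-high libraries as their 3 highest of 17. Among the 15432 genes tested over both sets, 8.11% had these 3 on top. The same 8 genes had every Rb1/Trp53 library above every Rb1/Trp53/Crebbp library in the Calca-high set, as had 22.5% of 14797 genes. In the Pomc-high set 2 of the 10 had this, Lpl and Pparg, against 5.87% of 14010 genes. The genes had been listed with their levels known, so nothing is read from these shares.

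Per kilobase of exon, which allows levels of different genes to be compared, the order in Rb1/Trp53 T1 was Cfd at 99.1, Car3 at 47.7, Fabp4 at 19.2, Adipoq at 14.7, Cidec at 9.59, Lipe at 7.29, Retn at 6.32, Lpl at 4.03, Pparg at 1.89 and Lep at 0.423 CPM per kilobase. Exon lengths were those of GENCODE M21 on GRCm38 and serve here for scale. Lpl led instead in Rb1/Trp53 Pomc-high libraries, with a median of 60.5 CPM per kilobase, where Lipe had 2.71 and Fabp4 1.63. The genes lie on 6 chromosomes, and the nearest pairs are Car3 and Fabp4 on chromosome 3, with 13 protein-coding genes between them, and Cidec and Pparg on chromosome 6, with 23 between them.

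The study's contrast asks which genes differ with the Crebbp alleles. Over all 17 libraries, 4 of the 10 genes passed the filter on low counts, and 1 of them, Fabp4, was lower in Rb1/Trp53/Crebbp tumours, against a background of 2.05% of 14338 genes called lower, 1.81% called higher and 3.86% called in either direction. Its log2 fold change was -2.27 ± 0.62 (SE, n = 8 and 9), with an adjusted p of 0.0498 by edgeR's quasi-likelihood test with Benjamini-Hochberg adjustment. This call was lost in 14 of the 17 fits that left out 1 library, with values of -2.43 to -1.79 and adjusted p of 0.0343 to 0.0928, and was kept without Rb1/Trp53 T2, T5 or T6. Without Rb1/Trp53 T1 and T3 together, an alternative chosen after seeing the data, the value was -0.84 with an adjusted p of 0.110. Lpl (-1.46 ± 0.96, adjusted p = 0.396), Pparg (-0.62 ± 0.39, adjusted p = 0.379) and Lipe (-0.48 ± 0.24, adjusted p = 0.255) did not pass in the same edgeR fit. The other 6 genes had too few reads in most libraries to be tested. In an edgeR fit without the filter their log2 fold changes were -5.31 to -3.68 with adjusted p of 0.0798 to 0.118.

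Within the Pomc-high libraries, Lpl and Pparg were lower in Rb1/Trp53/Crebbp tumours. Lpl had a log2 fold change of -1.03 ± 0.18 (2.05-fold lower, adjusted p = 0.00403, edgeR), and the call held in all 10 fits that left out 1 library, with values of -1.21 to -0.86. Pparg had -1.35 ± 0.34 (adjusted p = 0.030, edgeR) on 10 to 62 reads per library. The Pparg call was kept without Rb1/Trp53 T5, T6, T7, T8 or T9 and was lost without Rb1/Trp53 T2 or any of the 4 Rb1/Trp53/Crebbp libraries, with adjusted p of up to 0.0632. Fabp4 (-0.76 ± 0.25, adjusted p = 0.0806) and Lipe (-0.27 ± 0.13, adjusted p = 0.215) did not pass, and the other 6 genes were removed by the filter. In this fit 5.26% of 14010 genes were called lower, 3.15% higher and 8.42% in either direction.

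Beside these 2 calls, some markers of macrophages and endothelium were lower in Rb1/Trp53/Crebbp Pomc-high tumours. Cd68, a macrophage marker, had a median of 7.49 CPM in Rb1/Trp53/Crebbp and 18.4 CPM in Rb1/Trp53 Pomc-high libraries, without overlap. Of 14 macrophage genes tested 2 were called lower, 0 higher and 12 not called. Over all genes in this fit 5.26% were called lower and 3.15% higher. The summed macrophage list spanned 36.3 to 255 CPM in Rb1/Trp53/Crebbp and 160 to 458 CPM in Rb1/Trp53 tumours. Of 13 endothelial genes tested 2 were called lower, 0 higher and 11 not called, beside the same shares of all genes. The summed list of 15 spanned 40.7 to 90.0 CPM in Rb1/Trp53/Crebbp and 76.0 to 115 CPM in Rb1/Trp53 tumours. Their part in the values of Lpl and Pparg was not tested. In bulk samples, fewer cells of a type and less RNA per cell cannot be told apart.

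Within the Calca-high libraries, the differences were large. Fabp4 was lower in Rb1/Trp53/Crebbp tumours by a log2 fold change of -3.29 ± 0.49 (9.76-fold lower, adjusted p = 0.00314, edgeR, n = 4 and 3). Lipe was lower by -0.86 ± 0.19 (adjusted p = 0.0101, edgeR) and Lpl by -1.59 ± 0.45 (adjusted p = 0.0284, edgeR), while Pparg did not pass (-0.55 ± 0.30, adjusted p = 0.184, edgeR). The Lpl call was lost without Rb1/Trp53 T1 or T3 or Rb1/Trp53/Crebbp T1, T3 or T4, with values of -1.24 to -1.53 and adjusted p of up to 0.0881. In this set 17.1% of 14797 genes were called lower, 19.1% higher and 36.2% in either direction, so a call is common here. With upper-quartile scaling the order of the directions turned, with 2514 genes higher and 2879 lower, against 2821 higher and 2534 lower with TMM.

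Adipoq (-6.00 ± 0.98, adjusted p = 0.00414), Cfd (-6.19 ± 1.11, adjusted p = 0.00724), Car3 (-5.92 ± 1.11, adjusted p = 0.00925) and Cidec (-5.73 ± 0.85, adjusted p = 0.00292) were also called in the edgeR fit of the Calca-high libraries. They passed the filter on low counts only through the Rb1/Trp53 libraries, where they were high, so they could hardly fail to differ, and the count of 7 called among 8 tested supports nothing. Lep and Retn were removed by the filter. In limma-voom the calls of Car3 (adjusted p = 0.0905) and Cidec (adjusted p = 0.0607) were lost, and those of Adipoq (adjusted p = 0.0337) and Cfd (adjusted p = 0.0462) were kept. In edgeR each of the 4 calls held without any 1 library, but the values moved: Cfd was at -7.41 without Rb1/Trp53/Crebbp T1 and -5.20 without Rb1/Trp53 T1, Adipoq at -6.65 without Rb1/Trp53/Crebbp T1, Car3 at -5.23 without Rb1/Trp53 T1 and Cidec at -5.13 without Rb1/Trp53 T3.

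**Figure D2:**
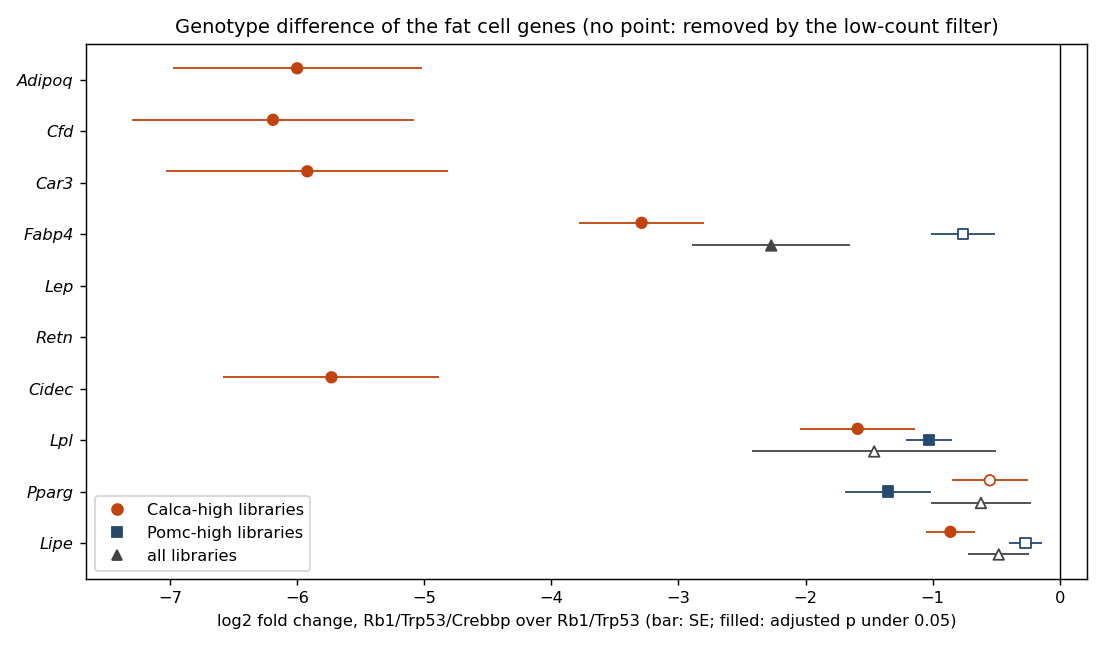
Log2 fold change of Rb1/Trp53/Crebbp over Rb1/Trp53 (horizontal axis, bars are SE) for each gene in the fits of Calca-high, Pomc-high and all libraries; filled symbols passed an adjusted p of 0.05, and genes without a point were removed by the filter on low counts. All plotted values are negative, from -6.19 for Cfd in Calca-high libraries to -0.27 for Lipe in Pomc-high ones.

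The difference between the genotype effects of the 2 sets was tested as an interaction over 15432 genes, of which 22.9% passed. Of the 8 genes tested, Fabp4 alone passed, with an effect lower by a log2 value of -2.53 ± 0.52 in the Calca-high set (adjusted p = 0.00354, edgeR). Lpl (-0.55 ± 0.45, adjusted p = 0.397) and Pparg (0.81 ± 0.47, adjusted p = 0.220) did not pass in that edgeR fit, so their effects are not shown to differ between the sets. Adipoq (-5.65 ± 2.45, adjusted p = 0.105), Cfd, Car3, Cidec and Lipe did not pass either, with adjusted p of 0.0658 to 0.160 in the same edgeR fit. The values of Adipoq, Cfd, Car3 and Cidec were -6.04 to -4.61, with SE of 1.97 to 2.85. These genes had 0 to 9 reads in each Pomc-high library. The test thus cannot tell whether their effects differ between the sets, and passing alone does not set Fabp4 apart from them.

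Markers of thyroid follicles and endothelium also differed between the genotypes in the Calca-high set. Tg, the thyroglobulin gene of thyroid follicles, was at 900, 1082, 1192 and 1252 CPM in Rb1/Trp53/Crebbp libraries T1 to T4, against 16647, 6633 and 2055 CPM in Rb1/Trp53 libraries T1, T3 and T4. Of 7 thyroid follicle genes tested 6 were called lower and 0 higher, beside 17.1% lower and 19.1% higher over all genes in this set. The 15 endothelial genes, 8 of them called lower and 0 higher, summed to 57.7 to 79.7 CPM in Rb1/Trp53/Crebbp and 115 to 131 CPM in Rb1/Trp53 libraries. The fibroblast list summed to 191 to 672 CPM in Rb1/Trp53/Crebbp and 617 to 892 CPM in Rb1/Trp53 libraries. Of its 10 genes edgeR called 0, with 2 at an unadjusted p under 0.05, while DESeq2 called 2 lower and limma-voom 1. In Rb1/Trp53 T1, T3 and T4 the fibroblast list summed to 617, 800 and 892 CPM. The 10 fat cell genes summed to 455, 342 and 91.0 CPM there, the opposite order. Not every gene of the fibroblast list had the order of its sum. Dcn was at 233, 179 and 15.3 CPM in Rb1/Trp53 T1, T3 and T4, the same order as the fat cell genes. The part of these tissues in the values of the fat cell genes was not tested.

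Skeletal muscle genes did not follow the fat cell genes in every library. Acta1, the muscle actin, was at 59.9, 157, 0.894 and 4.79 CPM in Rb1/Trp53/Crebbp Calca-high libraries, against 348, 2.62 and 23.6 CPM in Rb1/Trp53 Calca-high ones. Rb1/Trp53 T3 held 88.0 CPM of Car3 and 16.2 CPM of Adipoq with 2.62 CPM of Acta1. Rb1/Trp53/Crebbp T2 held 157 CPM of Acta1 with 0 reads of Adipoq and 36 reads of Car3. Within the Rb1/Trp53/Crebbp Calca-high libraries Car3 went with Acta1. It was at 2.43 and 2.20 CPM in T1 and T2, against 0.128 and 0.651 CPM in T3 and T4. The summed list of 15 muscle genes spanned 9.01 to 923 CPM in Rb1/Trp53/Crebbp and 19.0 to 2006 CPM in Rb1/Trp53 libraries. Of 13 tested, 0 were called by edgeR, DESeq2 or limma-voom, and 0 had an unadjusted p under 0.05.

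**Figure D3:**
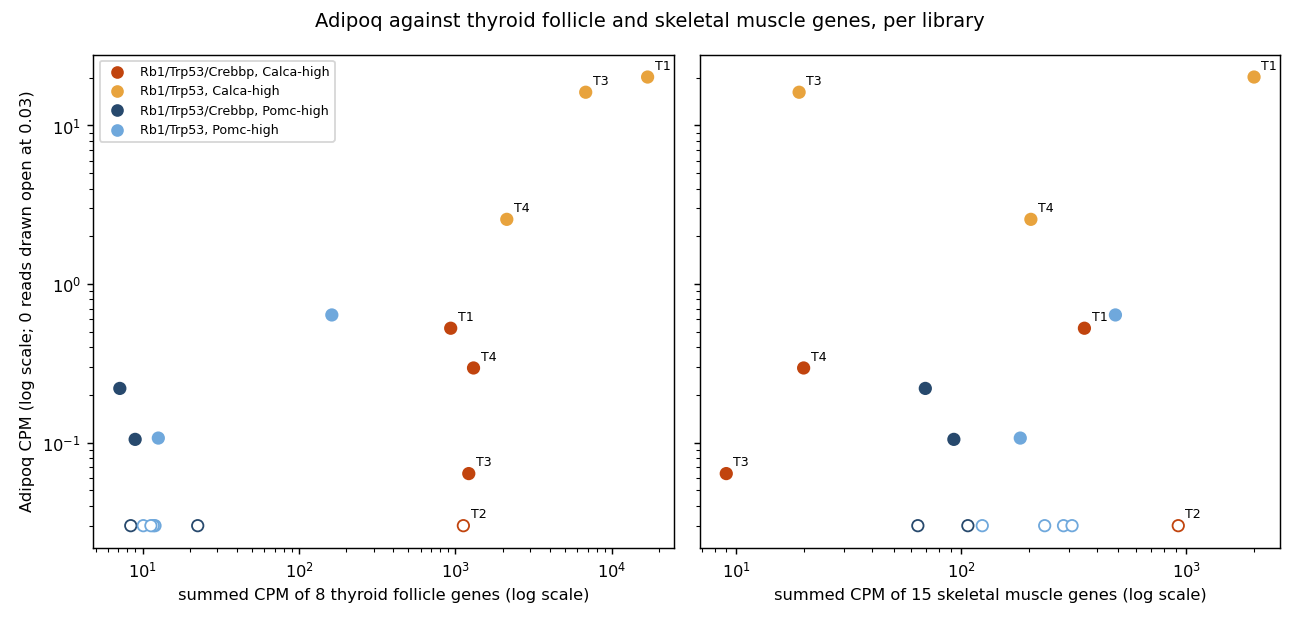
Adipoq CPM (vertical, log axis) against the summed CPM of 8 thyroid follicle genes (left) and of 15 skeletal muscle genes (right, both log axes) for each library, coloured by genotype and set, with Calca-high libraries numbered. Rb1/Trp53 T1, T3 and T4 descend together with thyroid genes on the left, at 16909, 6798 and 2128 CPM, while on the right T3 has 19.0 CPM of muscle genes beside 16.2 CPM of Adipoq.

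Among the 3 Rb1/Trp53 Calca-high libraries, the genes did not keep one ratio. The CPM ratio of T3 over T1 was 2.75 for Lep (exact 95% counting interval 1.83 to 4.26), 1.43 for Cidec (1.26 to 1.62) and 1.04 for Fabp4 (0.981 to 1.11). It was 0.801 for Adipoq (0.700 to 0.917), 0.529 for Retn (0.424 to 0.657) and 0.40 for Cfd (0.370 to 0.432). The intervals of Lep, Adipoq and Cfd do not overlap each other, and they cover counting error only. Tg had 0.398 (0.396 to 0.401), inside the interval of Cfd. The muscle genes Acta1 at 0.00752 (0.00585 to 0.00953) and Ckm at 0.00437 (0.00280 to 0.00652) lay below all 10 fat cell genes in this ratio.

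Between T4 and T1 the ratios were lower, at 0.126 for Adipoq (0.0927 to 0.169), 0.124 for Cfd (0.108 to 0.142), 0.130 for Cidec (0.0933 to 0.176), 0.0708 for Car3 (0.0609 to 0.0819) and 0.265 for Fabp4 (0.239 to 0.294). Lipe at 0.580 and Pparg at 0.656 had the highest ratios of the 10 genes here. Tg had 0.123 (0.122 to 0.125), inside the intervals of Adipoq, Cfd and Cidec. Muscle lay there as well in this ratio: Ckm, muscle creatine kinase, had 0.123 (0.112 to 0.135), inside the same 3 intervals. Acta1 had 0.0679 (0.0617 to 0.0745) and the fibroblast gene Dcn 0.0656 (0.0583 to 0.0737), both inside the intervals of Car3 and Retn. The T4 over T1 ratio thus does not set thyroid, muscle and fibroblast genes apart from the fat cell genes. Calca had 1.31, the opposite direction.

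**Figure D4:**
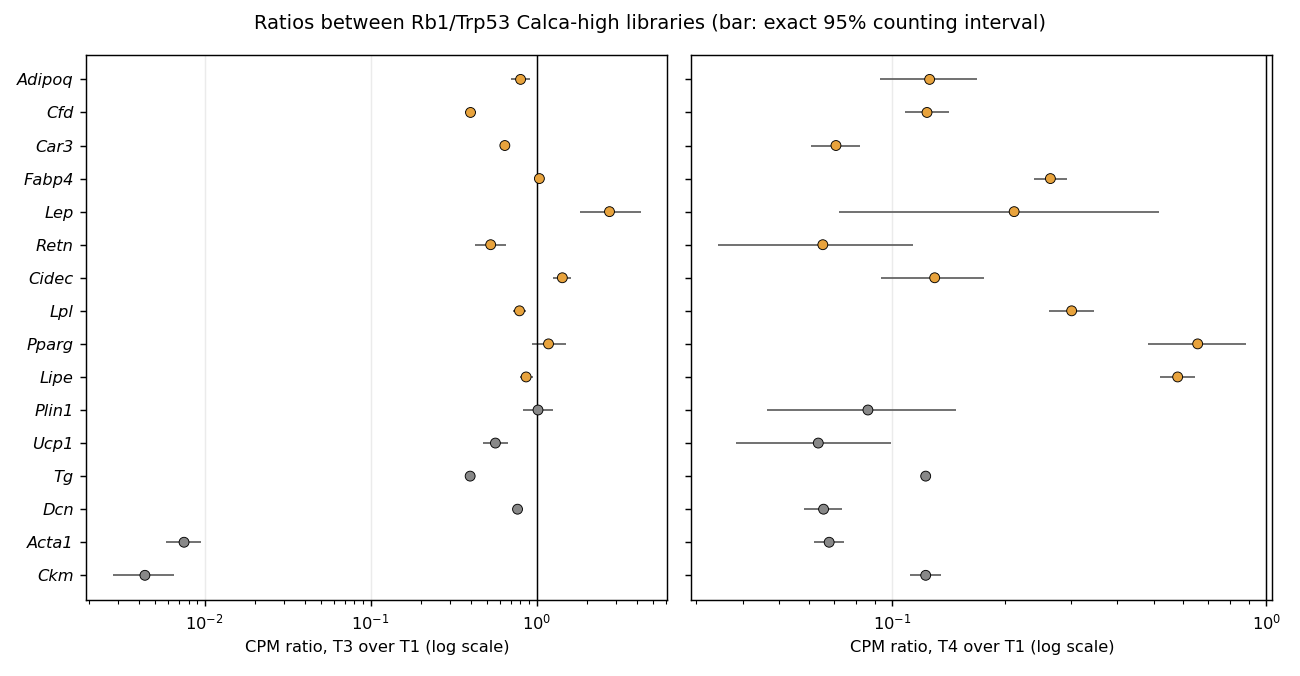
Ratio of CPM in Rb1/Trp53 T3 over T1 (left) and T4 over T1 (right), both on log axes, for the 10 fat cell genes (orange) and 6 other genes (grey), with exact 95% counting intervals. On the left the fat cell genes span 0.40 for Cfd to 2.75 for Lep, far from Acta1 at 0.00752, and on the right all ratios are under 1, with Acta1 at 0.0679 beside Car3 at 0.0708.

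Over the 7 Calca-high libraries, log2 CPM of the 10 genes correlated with a median Pearson r of 0.91 over 45 pairs (0.54 to 0.99). The median Spearman rho was 0.75. The libraries share genotype blocks, depth differs between the blocks and the 3 Rb1/Trp53 libraries are all at the high end, so the correlations restate the order above. Without the 2 libraries farthest from the median of the gene on the x axis the median r was 0.59. With Adipoq, r was 0.99 for Cfd, 0.98 for Cidec, 0.95 for Lep and Retn, 0.93 for Car3 and 0.92 for Fabp4. Without Rb1/Trp53 T1 and T3 these were 0.99 for Cfd, 0.97 for Lep, 0.96 for Cidec, 0.79 for Retn, 0.71 for Car3 and 0.58 for Fabp4. Lipe, Lpl and Pparg had 0.90, 0.80 and 0.63 over 7 libraries and 0.48, -0.01 and -0.33 without those 2. Tg had 0.91 and 0.68, and Acta1 0.18 and 0.08. Without Rb1/Trp53 T1 and T3, Adipoq had 51 reads in Rb1/Trp53 T4 and 0 to 5 in the Rb1/Trp53/Crebbp libraries. Lep had 6 reads in T4 and 0 to 2 in those libraries. The values of r without T1 and T3 thus rest largely on T4 and on few reads.

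Over the 10 Pomc-high libraries the median r was 0.17 over 45 pairs (-0.38 to 0.85). There 6 of the 10 genes rest on 0 to 9 reads per library, so a weak correlation is no finding. Rb1/Trp53 T7 was the highest Pomc-high library for Adipoq, Car3, Cidec and Lpl, with 5 reads of Adipoq, 9 of Car3 and 8 of Cidec. For Cfd and Retn it also ranked first in CPM, but on 2 reads each. Other Pomc-high libraries had as many reads of both, and T7 had the lowest total count of the set. The same library was the highest of the set for Tg, at 151 CPM against 12.5 CPM or less in the other 9, and for Acta1, at 15.1 CPM.

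Genes most like the mean log2 CPM of the 10 were sought among those averaging 5 CPM or more. In the Calca-high set, 11828 genes were compared and 175 had an r of at least 0.95 over 7 libraries. The 8 closest were 5430417L22Rik (0.999), Adprhl1 (0.994), Cyp2e1 (0.993), 1810063B07Rik (0.991), Ptplb (0.990), S100a1 (0.989), Mvp (0.988) and Dguok (0.987). Of these, Cyp2e1, a cytochrome P450, spanned the widest range, at 0.118 to 0.633 CPM in Rb1/Trp53/Crebbp and 3.91 to 41.6 CPM in Rb1/Trp53 libraries. The closest, 5430417L22Rik, was at 31.2 to 33.9 CPM in Rb1/Trp53/Crebbp and 37.0 to 43.3 CPM in Rb1/Trp53 libraries. The cut at 5 CPM left out the fat genes Plin1, Ucp1 and Pck1, which averaged 2.51, 3.71 and 4.92 CPM in this set. The 7 libraries share genotype blocks, so a high r restates the order of the blocks and names no partner of the fat cell genes. In the Pomc-high set 0 of 11721 genes reached 0.95, and the closest included Tg (0.913), Tpm1 (0.867), Gpr62 (0.836), Aldh1b1 (0.834), Adam33 (0.812), Cenpo (0.811) and Gramd1c (0.806). There 6 of the 10 genes had too few reads to pass the filter. Tg was at 151 CPM in Rb1/Trp53 T7 and at 12.5 CPM or less in the other Pomc-high libraries. Nothing is therefore read from this order.

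A further list of 40 genes of fat cells was measured in full. Over all libraries 31 were tested, 2 were lower in Rb1/Trp53/Crebbp tumours and 0 higher, beside 2.05% lower and 1.81% higher over all genes. The 31 genes had a median log2 fold change of -0.14 against -0.02 over all genes. Lgals12, galectin-12 of lipid droplets, fell by 1.53 on the log2 scale (-1.53 ± 0.15, adjusted p = 4.69e-05, edgeR), and Pnpla2, the lipase that starts triglyceride breakdown, had -0.54 ± 0.14 (adjusted p = 0.0417, edgeR). Lgals12 was lower in both sets, at 2.87 to 5.97 CPM in Rb1/Trp53/Crebbp and 11.6 to 15 CPM in Rb1/Trp53 Calca-high libraries. In Pomc-high libraries it was at 3.16 to 5.45 CPM in Rb1/Trp53/Crebbp and 10.4 to 11.7 CPM in Rb1/Trp53 tumours. Unlike Lgals12, Adipoq was at 0.639 CPM or less in Rb1/Trp53 Pomc-high libraries.

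In the Pomc-high fit 29 of the 40 were tested and 2 were lower (Lgals12, -1.42 ± 0.17, and Gpd1 of glycerol 3-phosphate synthesis, -0.95 ± 0.12). There 1 was higher (Acaca of fatty acid synthesis, 0.40 ± 0.11). These counts are near the shares of all genes in that fit, 5.26% lower and 3.15% higher. The median was -0.08 against 0.01 over all genes. In the Calca-high fit 35 were tested, 17 were lower and 3 higher, beside 17.1% lower and 19.1% higher over all genes, with a median of -0.58 against -0.02 over all genes. The smallest adjusted p by edgeR among the lower ones belonged to Hp, haptoglobin (-3.00 ± 0.31, adjusted p = 0.00115), Pnpla2 (-0.99 ± 0.11), Pck1 of glyceroneogenesis (-7.25 ± 0.95), the acute-phase gene Orm1 (-2.20 ± 0.33), Lgals12 (-1.68 ± 0.25) and Tusc5 (-2.75 ± 0.44). Plin1, which coats the fat droplet, was at 0 to 0.316 CPM in Rb1/Trp53/Crebbp and 0.702 to 8.31 CPM in Rb1/Trp53 Calca-high libraries (-5.90 ± 1.14). The 3 higher genes were Acly (1.13 ± 0.21) and Lpin1 (0.55 ± 0.14) of lipid synthesis and the fatty acid carrier Fabp5 (1.34 ± 0.38). Fabp5 was at 270 to 536 CPM in Rb1/Trp53/Crebbp and 94.9 to 246 CPM in Rb1/Trp53 Calca-high libraries, the opposite order to Fabp4. Pck1 and Plin1, like Adipoq, passed the filter through the Rb1/Trp53 libraries.

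Brown fat markers were split. Ucp1, the uncoupling protein that defines brown fat, was at 0.105, 0, 0 and 0.118 CPM in Rb1/Trp53/Crebbp Calca-high libraries, against 15.8, 8.92 and 1.0 CPM in Rb1/Trp53 Calca-high ones (fitted log2 difference -7.19 ± 1.18). It passed the filter only through the Rb1/Trp53 libraries, with at most 2 reads in any Rb1/Trp53/Crebbp Calca-high library, so its call supports nothing. It was at 0 or 0.105 CPM in Pomc-high libraries other than Rb1/Trp53 T7, which had 1.41 CPM. Ucp1 and Cox8b (-4.28 ± 0.92) were the 2 of 8 brown fat genes tested in Calca-high libraries that were called lower, and 0 were called higher, a share near the 17.1% of all genes called lower. Cox8b too passed the filter through the Rb1/Trp53 libraries. It was also called lower over all libraries (-3.26 ± 0.70, adjusted p = 0.0174, edgeR) and in Pomc-high ones (-2.10 ± 0.59, adjusted p = 0.0450, edgeR). In each of these fits it was the 1 gene called of 7 brown fat genes tested, beside 2.05% and 5.26% of all genes called lower. Cidea, another brown fat gene, did not pass and was at 9.81 to 12 CPM in Rb1/Trp53/Crebbp and 7.22 to 10.8 CPM in Rb1/Trp53 Calca-high libraries.

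**Figure D5:**
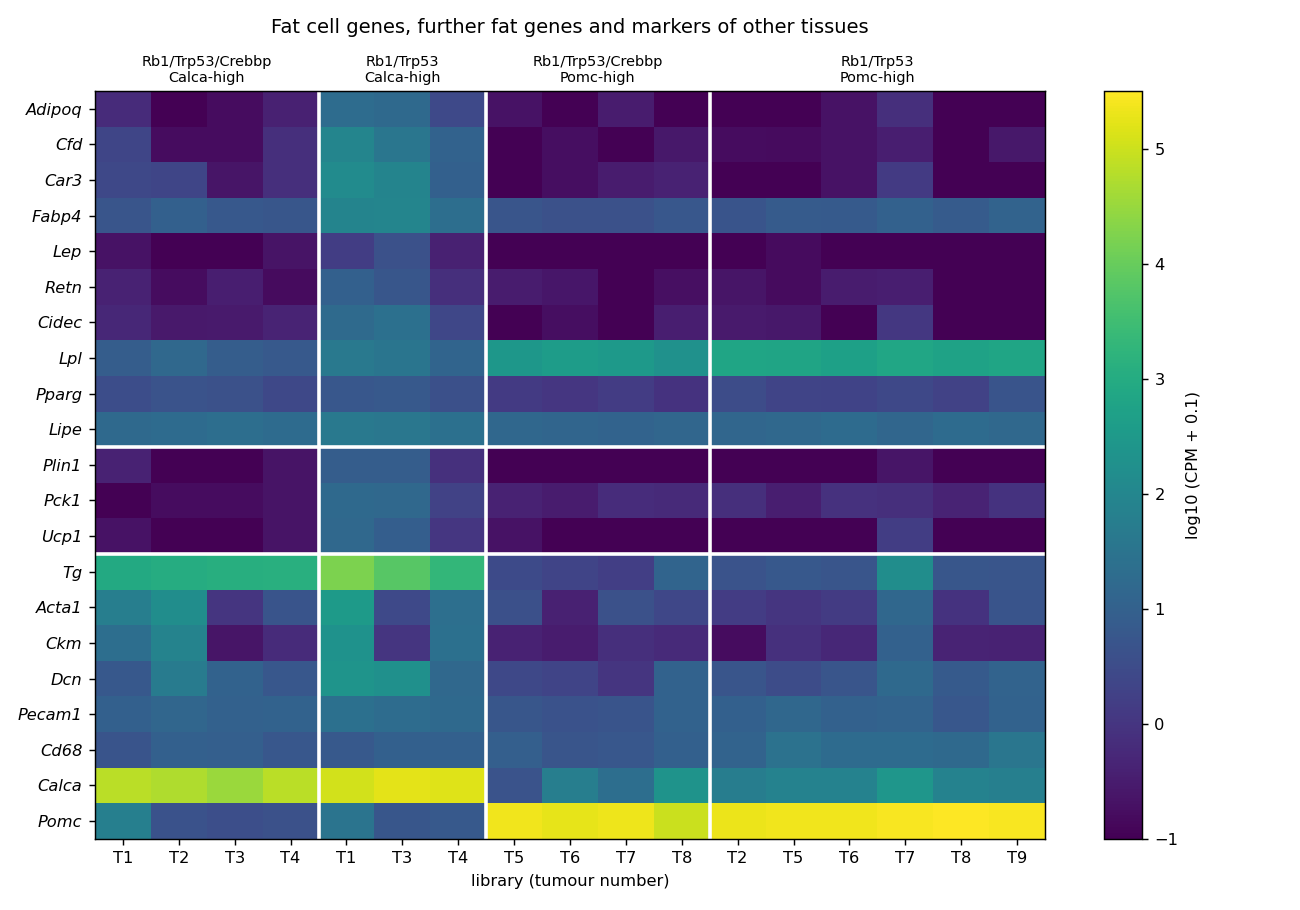
Log10 of CPM plus 0.1 (colour) for the 10 fat cell genes, 3 further fat genes and 8 genes of other tissues and of the 2 sets (rows) in the 17 libraries (columns), in blocks of Rb1/Trp53/Crebbp and Rb1/Trp53 Calca-high and then Rb1/Trp53/Crebbp and Rb1/Trp53 Pomc-high libraries. The upper rows are bright in Rb1/Trp53 T1 and T3, where Adipoq was at 20.2 and 16.2 CPM, and Lpl is bright in the Pomc-high blocks.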

How the data were processed

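RNA from 17 mouse tumours was sequenced. Per the labels' protocols, RNA was isolated with TRIzol and polyadenylated RNA was made into libraries with a NEBNext Ultra kit. The submitters' processing notes name bcl2fastq 1.8.2, TopHat2 2.0.12, HTSeq 0.6.1 and build mm9. No source used here gives the annotation, strand setting or filters. The authors deposited raw counts per gene, 1 table per tumour, whose 5 rows that name no gene were left out. Of each table, reads on no feature made up 11.7% to 21.7% and reads not aligned uniquely 8.20% to 18.5%.

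Genes, gene lists, sets and tests were chosen with earlier results of these data known. Genotypes came from the labels. Counts were filtered with filterByExpr, scaled by TMM and tested with edgeR 4.0.16 (robust quasi-likelihood F test, R 4.3.3) over all libraries, within each set and as an interaction, with Benjamini-Hochberg adjustment over all tested genes and a threshold of 0.05. Fold changes on the log2 scale put Rb1/Trp53/Crebbp over Rb1/Trp53. SE values are log2 fold changes (unsigned) over the root of F. CPM used TMM-scaled totals, and log2 CPM a prior count of 2. Counting intervals are exact (scipy 1.17.1).

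Besides all 10 genes, the named genes came from the first 3 markers of each list, up to 6 further fat genes per fit by adjusted p, and the 8 genes per set most alike in log2 CPM, of which 1 is not reported here. Crebbp, Fabp5, Acly, Lpin1, Cox8b, Gpihbp1 and Angptl4 were named after their values were seen. Lists of lung, anterior pituitary, Pomc cell, calcitonin cell, erythroid and lymphocyte genes were also summed. Between Calca-high genotypes the edgeR calls lower and higher were 5 and 1 of 7 lung genes, 1 and 1 of 5 Pomc cell genes, 6 and 0 of 8 calcitonin cell genes, 1 and 0 of 2 lymphocyte genes and 0 of 1 erythroid gene (0 also at an unadjusted p under 0.05 and in DESeq2 and limma-voom), beside 17.1% and 19.1% of all genes, and no anterior pituitary gene was tested.

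Alternatives were DESeq2 1.42.0 and its size factors, upper-quartile scaling, no filter, a 1 CPM filter, limma-voom (limma 3.58.1), a block for tumour number, the set as a term, and each library left out. On simulated counts with 200 genes changed, the fit over all libraries (14214 genes) recovered 64% of 2-fold and 87% of 4-fold changes with 12 false calls. In Pomc-high libraries (13934 genes) it recovered 66% and 90%, and in Calca-high libraries (14693 genes) 54% and 88%.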

Additional observations from a re-analysis of the deposited data

Results flagged for a closer look

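The genotype effect on Fabp4 differed between the sets. Fabp4 was lower in Rb1/Trp53/Crebbp tumours by a log2 fold change of -3.29 ± 0.49 in Calca-high libraries and by -0.76 ± 0.25, which did not pass, in Pomc-high libraries. The interaction of genotype and set was -2.53 ± 0.52 (adjusted p = 0.00354, edgeR), and it was between -2.93 and -2.24 and past the threshold in all 17 fits without 1 library, an alternative chosen after seeing the data. The sets were defined from the counts. Tg and the summed endothelial genes were also lower in Rb1/Trp53/Crebbp Calca-high libraries, and their part in the Fabp4 value was not tested. Of 20 groups of 8 or 9 samples tested for a library standing apart in log2 CPM of a fat cell gene, 0 were flagged, where chance flags about 1 in 20. The groups were made by genotype and pooled both sets. Several high libraries in a group can hide one another from this test, so the lack of flags excludes nothing.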

How the results depend on the processing

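No refitted value changed its sign under these alternatives among the fat cell genes that passed the filter in the main fit. Retn, removed by the filter, was at 0.16 in Pomc-high libraries in the fit without it (adjusted p = 0.938, edgeR). The balance of calls over all genes turned in places. Calca-high libraries had 2514 higher and 2879 lower with upper-quartile factors, against 2821 and 2534 with TMM. Over all libraries, 260 higher and 294 lower became 741 and 656 in DESeq2, 557 and 453 without Rb1/Trp53/Crebbp T5, 371 and 303 without T7 and 318 and 245 without T8 of that genotype. Small excesses of higher calls also came without Rb1/Trp53/Crebbp T1, Rb1/Trp53 T1 or T2, or Rb1/Trp53 T1 and T3 together. For the interaction, 1982 higher and 1549 lower became 1717 and 1742 without Rb1/Trp53/Crebbp T1, 1573 and 1586 without T2 and 1792 and 1828 without T8. Over all libraries, 554 genes were called in edgeR, 1397 in DESeq2 and 2575 with the set as a term. Leaving out 1 library gave 285 to 1010 over all libraries, with over 1.5-fold fewer calls without Rb1/Trp53 T7 (313) or T8 (326) or Rb1/Trp53/Crebbp T1 (309), T2 (332), T3 (292) or T4 (285) and more without Rb1/Trp53/Crebbp T5 (1010). It gave 752 to 1214 against 1179 in Pomc-high libraries, lowest without Rb1/Trp53/Crebbp T7, 3588 to 5312 against 5355 in Calca-high ones and 2487 to 3849 against 3531 for the interaction. DESeq2 called 1917 genes in Pomc-high libraries.

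The Fabp4 value over all libraries was -2.27 without a filter (adjusted p = 0.0628, edgeR) and -1.72 in limma-voom (0.207). It stayed past the threshold in DESeq2 (-2.27, adjusted p = 0.00220) and in edgeR with the set as a term (-1.92, adjusted p = 0.00576). With the set as a term, Lpl was at -1.27 (0.00152), Pparg at -0.99 (0.0134) and Lipe at -0.54 (0.00921), all then past the threshold in edgeR. Without Rb1/Trp53 T1 and T3 Fabp4 had -0.84 (0.110). In Calca-high libraries Car3 (0.0905), Cidec (0.0607) and Lpl (0.0574) missed the threshold in limma-voom, and in Pomc-high ones DESeq2 called Fabp4 (-0.75, 0.0429). Leaving out 1 library gave -2.43 to -1.79 for Fabp4, -1.83 to -1.24 for Lpl, -0.83 to -0.46 for Pparg and -0.55 to -0.30 for Lipe over all libraries. The median r over 45 pairs in Calca-high libraries was 0.75 as Spearman's rho and 0.59 without 2 libraries. The cause of these changes was not tested.

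The tumour numbers gave no sign of pairing the samples once the sets were kept apart. Deviations of same-numbered libraries from their genotype means correlated at -0.652 for T2, whose libraries fall in different sets. For the other numbers, whose libraries share a set, they correlated at 0.464 (T8) to 0.77 (T1). Within the sets the correlations were -0.161 to 0.194. With the number as a replicate block, 430 genes were called over all libraries, 354 in Pomc-high and 2700 in Calca-high libraries, Fabp4 was at -1.48 (0.173), Pparg in Pomc-high libraries at -0.95 (0.180) and Lipe in Calca-high ones at -0.80 (0.0544). Of the refitted values of single genes, 246 kept their side of the threshold, 33 lost it and 5 gained it. Genes under the floor of 3 counts are limited by depth.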

Other observations

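Partners of lipoprotein lipase were looked at after their values had been seen. Gpihbp1, which anchors Lpl on capillaries, was at 1.12 to 1.60 CPM in Rb1/Trp53/Crebbp and 2.21 to 3.34 CPM in Rb1/Trp53 Calca-high libraries, without overlap. In Pomc-high libraries it was at 1.43 to 2.84 CPM in Rb1/Trp53/Crebbp and 1.53 to 5.06 CPM in Rb1/Trp53 tumours, with overlap. Angptl4, a secreted inhibitor of Lpl, was at 0.527 to 2.69 CPM in Rb1/Trp53/Crebbp and 5.31 to 8.51 CPM in Rb1/Trp53 Calca-high libraries. In Pomc-high libraries it was at 0.770 to 6.56 CPM in Rb1/Trp53/Crebbp and 1.34 to 5.79 CPM in Rb1/Trp53 tumours. Cd36, which takes up the fatty acids that Lpl frees, was at 1.79 to 8.13 CPM in Rb1/Trp53/Crebbp and 5.32 to 24.1 CPM in Rb1/Trp53 Calca-high libraries. Neither Gpihbp1 nor Angptl4 had the excess of Pomc-high over Calca-high libraries that Lpl had.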
